A study of Mus musculus with 37 samples.

Results

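Mature oligodendrocyte and myelin genes were followed as a set of 32 genes, given as mouse symbols and found in the count table by matching each Ensembl identifier to its symbol. Each of the 32 symbols matched 1 of the 56980 rows, and all 32 passed the filter on low counts, so every member was tested. Oligodendrocytes wrap axons of the brain in myelin, a compacted stack of membrane that speeds conduction and that is still being laid down in the rodent frontal cortex after weaning. The members cover its main parts, with proteins of compact myelin and its surface (Mbp, Mobp, Mog, Mag, Mal, Cldn11, Opalin) and enzymes that make its lipids (Ugt8a, Fa2h). They include cytoplasmic and cytoskeletal proteins (Cnp, Ermn, Gsn), connexins (Gjc3, Gjb1) and proteins of the node region (Hapln2, Cntn2). The transcription factors that switch the programme on (Sox10, Myrf, Nkx6-2) are members too. In bulk tissue, fewer cells of a type and less RNA per cell cannot be told apart.

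The study asked how a short course of oral antibiotics acts on morphine reward and on gene expression in the medial prefrontal cortex at 2 ages. All mice were male, wild-type C57BL/6J. They were adults, started at postnatal day 55, or adolescents, started at postnatal day 25; each drank antibiotics or plain water, and each was injected subcutaneously with morphine at 15 mg/kg or with saline over 5 days. Crossing age, drink and injection gives 8 groups, and in the 35 libraries used they hold 4 adult antibiotics morphine, 5 adult antibiotics saline, 5 adult water morphine, 3 adult water saline, 5 adolescent antibiotics morphine, 3 adolescent antibiotics saline, 5 adolescent water morphine and 5 adolescent water saline libraries. The sample labels give the tissue as brain and the cell type as all, and the medial prefrontal cortex is named in the series title. The labels do not say that each library is a separate animal, so p-values measure the spread between libraries, part of which may be technical.

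The 35 libraries held 10630727 to 31560468 counts each, with a median of 15910823, and 2 further libraries with 25165 and 58764 counts were left out. Adolescent water saline replicate 1 stood apart: Drd2, the dopamine receptor of striatal projection neurons, had 53.2 CPM (counts per 1000000 of the library total, scaled by edgeR's TMM factor) in it and 0.516 to 2.69 CPM in the other 34. Slc17a7, which loads glutamate into vesicles of excitatory cortical cells, had 1170.0 CPM in it and 1492 to 1935 CPM in the other 34. Counts of members past the threshold and the members' medians are given with all 35 and with those 34 libraries. Other values are from the 35 libraries unless stated. Adult antibiotics saline replicate 2 also differed strongly from its group mates, as given under the processing, and stays among the 34. Counts of the pancreatic hormone genes Ins1, Ins2 and Gcg summed to 484 to 1051 in 7 adolescent libraries and to at most 10 in the other 28.

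Sequence just upstream of members was available for 25 of the 32, as windows of 250 bases ending at a RefSeq transcription start on GRCm38.p6. A pair of motifs were looked up on both strands: ACAAAG, the core bound by SOX factors such as SOX10, and CTGGCAC or CTGGTAC, the core reported for MYRF in rodents. The windows shown are those of the members that hold the MYRF letters, 1 for each. All of them differ with age in a comparison with an added term given further on. With 35 libraries that comparison calls 22 of the 32 members and 25.9% of all genes tested. Hapln2 is higher in adults there, and Cnp, Mag and Mog are lower. Those lower members are not called when transcription factors set the level instead. Capitals mark the matches of either motif.
Cnp, chr11:100574689-100574938 (plus strand): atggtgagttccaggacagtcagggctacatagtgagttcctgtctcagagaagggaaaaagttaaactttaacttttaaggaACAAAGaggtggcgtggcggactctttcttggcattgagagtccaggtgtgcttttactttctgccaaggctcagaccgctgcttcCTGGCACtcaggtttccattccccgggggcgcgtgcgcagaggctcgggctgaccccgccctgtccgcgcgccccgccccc
Mag, chr7:30914864-30915113 (minus strand): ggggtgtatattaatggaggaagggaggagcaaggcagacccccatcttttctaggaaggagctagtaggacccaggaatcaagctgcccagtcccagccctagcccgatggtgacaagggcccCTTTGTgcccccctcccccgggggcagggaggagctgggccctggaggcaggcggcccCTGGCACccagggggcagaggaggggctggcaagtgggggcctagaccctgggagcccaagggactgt
Mog, chr17:37023399-37023648 (minus strand): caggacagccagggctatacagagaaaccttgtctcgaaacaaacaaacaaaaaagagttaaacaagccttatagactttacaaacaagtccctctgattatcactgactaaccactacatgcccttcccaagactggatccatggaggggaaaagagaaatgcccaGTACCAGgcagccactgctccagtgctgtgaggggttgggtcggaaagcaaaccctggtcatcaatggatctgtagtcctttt
Hapln2, chr3:88027512-88027761 (minus strand): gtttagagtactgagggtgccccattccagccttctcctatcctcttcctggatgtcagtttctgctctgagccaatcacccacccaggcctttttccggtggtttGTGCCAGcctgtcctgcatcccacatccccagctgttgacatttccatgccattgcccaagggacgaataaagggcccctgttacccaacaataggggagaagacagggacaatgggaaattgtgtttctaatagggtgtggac

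Counted per gene, the SOX letters stood before 8 of the 25 members with a window (32%) and before 18.6% of the 27025 genes with one. The MYRF letters stood before 4 of these members (16%), which are Cnp, Mag, Mog and Hapln2, and before 6.79% of all genes. Both stood in 1 window for 2 members, Cnp and Mag, and for 1.22% of all genes. Counted per window, the SOX letters were in 10 of the 34 windows of members and in 16.5% of all windows, and the MYRF letters in 5 of the 34 and in 5.93% of all windows. A further Mag window, chr7:30914923-30915172, overlaps the one shown and holds the same matches, so the counts per window take them more than once. These are matches of letters in short windows, and binding was not measured. A tie between these letters and the age differences was not tested.

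Per kilobase of exon, Mbp was the most abundant member. Its median over the 34 libraries was 132 CPM per kb, ahead of Qdpr, which recycles the pterin cofactor of amine synthesis, at 51.1 CPM per kb, and Cnp, the phosphodiesterase that keeps cytoplasmic channels open in myelin, at 46.3 CPM per kb. The tight junction protein Cldn11 (43.6 CPM per kb) and the raft proteolipid Mal (40.9 CPM per kb) followed. Lengths are those of the union of exons in GENCODE M21. Carbonic anhydrase Car2 had 36.4 CPM per kb, the lipocalin Apod 23.6 CPM per kb and transferrin, Trf, 21.9 CPM per kb. The surface protein Mog had 20.2 CPM per kb, the axon-facing adhesion protein Mag 17.2 CPM per kb and Mobp, a small basic protein of compact myelin, 14.2 CPM per kb. Transcription factors were lower, with Sox10 at 8.40 CPM per kb, Myrf at 2.77 CPM per kb and Nkx6-2 at 2.43 CPM per kb. The lowest 3 were Tmem125 (1.71 CPM per kb), Aspa, the enzyme that splits N-acetylaspartate (1.16 CPM per kb), and the adhesion protein Ninj2 (0.891 CPM per kb). The spans of neighbours in this order overlap: Mog ran from 7.75 to 52.6 CPM per kb and Mag from 10.5 to 43.4 CPM per kb.

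The 32 members moved together from library to library, and single libraries rather than groups held the extremes. For each library the members' level was summarised as the mean over members of log2(CPM + 1) minus that gene's median over the 35 libraries. It was 2.31 in adolescent water saline replicate 1, where 31 of 32 members had their highest value and the members took 1.77% of all counts. Next came adult antibiotics saline replicate 5 at 1.10, adolescent water morphine replicate 5 at 0.97, adolescent antibiotics morphine replicate 4 at 0.93 and adult water morphine replicate 5 at 0.60. These had 32, 30, 28 and 20 members among their 5 highest libraries. The lowest were adolescent water saline replicates 3 (-0.80) and 2 (-0.50), with 29 and 24 members among the 5 lowest. The 5 high libraries come from 5 different groups, and the adolescent water saline group holds the highest library and the lowest ones.

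As group means on this log2 scale (± SD, 3 to 5 libraries each), the members' level was 0.04 ± 0.19 in adult antibiotics morphine, 0.15 ± 0.57 in adult antibiotics saline, -0.07 ± 0.38 in adult water morphine and -0.05 ± 0.24 in adult water saline mice. In adolescents it was 0.33 ± 0.37 on antibiotics with morphine, 0.01 ± 0.01 on antibiotics with saline, 0.11 ± 0.51 on water with morphine and 0.16 ± 1.24 on water with saline. Without replicate 1 that last group stood at -0.38 ± 0.36 (n = 4), the lowest of the 8. The 8 means with all libraries ran from -0.07 to 0.33, while the SD of 3 groups was 0.51 or more. The 3 adolescent antibiotics saline libraries lay closest together. Summed over members, the 34 libraries ran from 1462 to 6026 CPM with a median of 2654 CPM, and replicate 1 of adolescent water saline had 16948 CPM. The median within-group SD of a member was 0.66 log2 units over 35 libraries and 0.45 over 34, against 0.16 and 0.15 for all genes tested. Mobp varied most in the 34 libraries (0.61) and Car2 least (0.18).

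**Figure D1:**
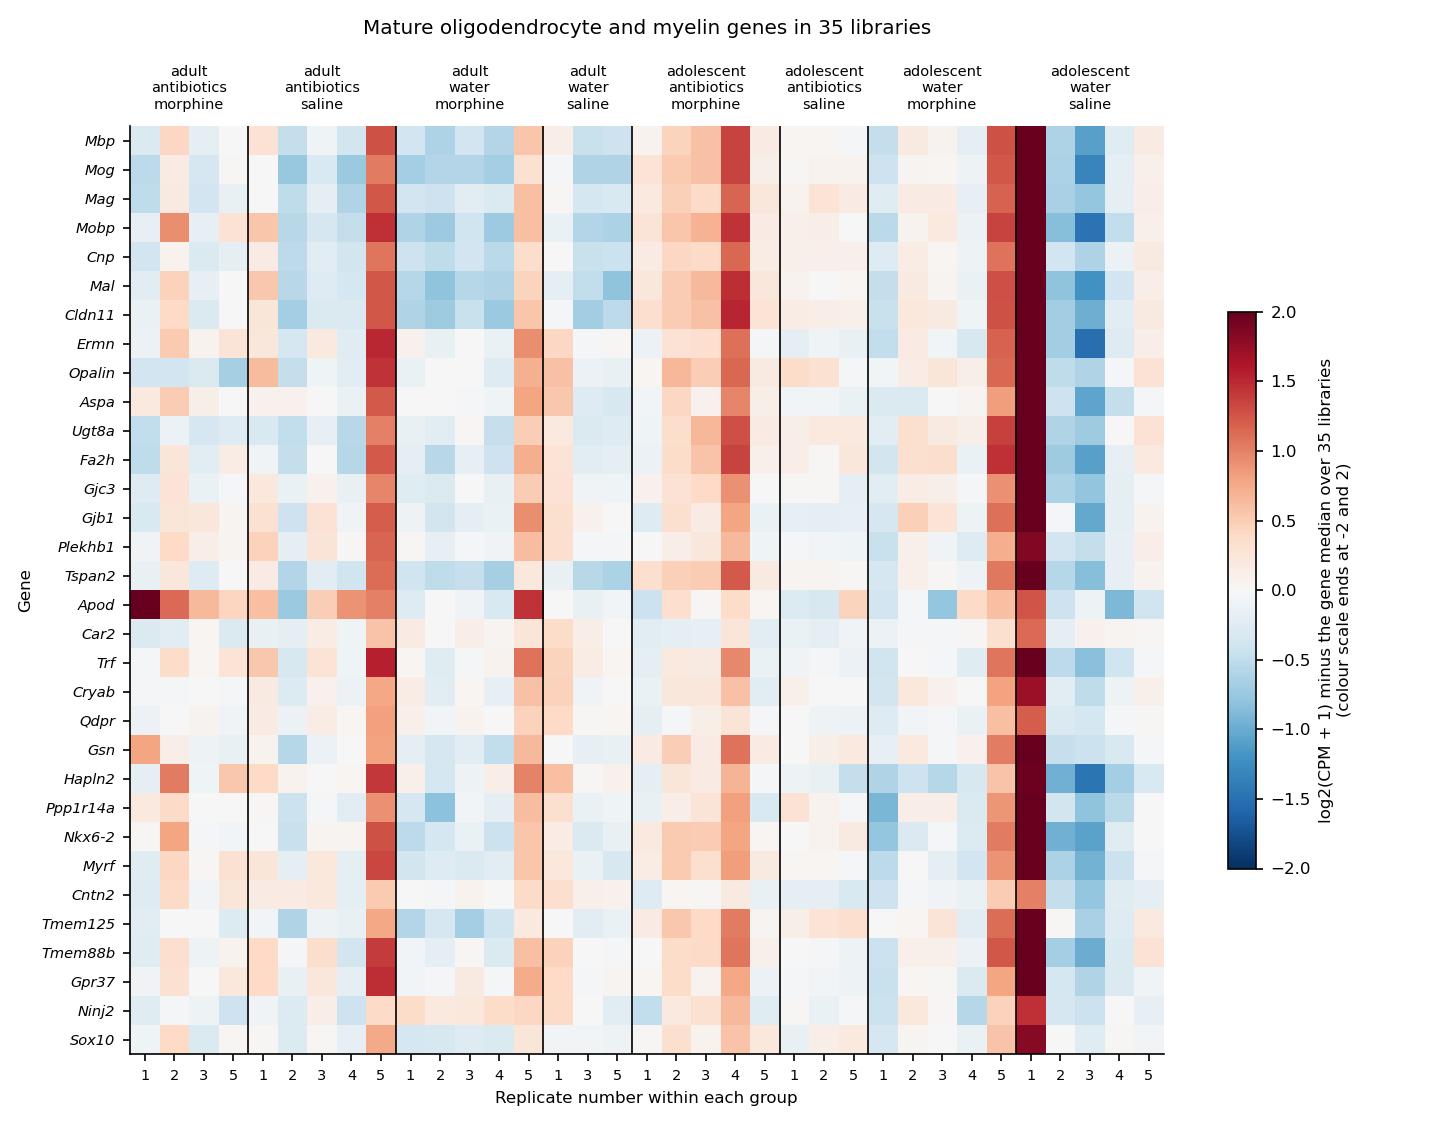
Level of each of the 32 members (rows) in each of the 35 libraries (columns, by group and replicate number), as log2(CPM + 1) minus the gene's median over the libraries, with the colour scale ending at -2 and 2. Whole columns are coloured alike: adolescent water saline replicate 1 is high for nearly every member, and replicates 2 and 3 of the same group are low.

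The size of the excess in adolescent water saline replicate 1 differed by member, as a description of 1 library. Measured as log2(CPM + 1) minus the gene's median, it was largest for Ugt8a, which makes galactosylceramide, the main lipid of myelin (3.22), Mobp (3.08) and Cldn11 (3.06). It was smallest for Cntn2 (1.01), Car2 (1.13), Qdpr (1.21) and Apod (1.26). Apod was the 1 member not at its highest there, at 0.591 of its highest level in the other 34 libraries. The level of the striatal neuron genes, summarised the same way, was 2.92 in that library and -0.16 to 0.14 in the other 34, that of cortical excitatory neuron genes was -0.40 there, and that of fibrous astrocyte genes, a marker of white matter, was 0.70 there. Fibrous astrocyte genes stood at 0.43 in adolescent water saline replicate 3, the library with the lowest member level. The part of other tissue in the members' values of these libraries was not tested.

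Further members are given by their spans. Among lipid and metabolic enzymes, Ugt8a had a median of 5.53 CPM per kb over the 34 libraries (range 3.41 to 15.1) and Fa2h 5.25 CPM per kb (range 2.37 to 15.4). The connexin Gjc3 had 6.35 CPM per kb (range 3.59 to 12.8) and Gjb1 2.08 CPM per kb (range 0.733 to 5.63). The small heat shock protein Cryab had 23.5 CPM per kb (range 16.3 to 41.5) and Ppp1r14a, an inhibitor of protein phosphatase, 5.89 CPM per kb (range 2.82 to 11.9). Car2 ran over a narrow span, 29.9 to 54.8 CPM per kb, and Opalin over a wide one, 2.02 to 9.81 CPM per kb.

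Values per library, in the order of the replicate numbers, follow for the main myelin proteins and transcription factors and for the members that passed a test; the first value of adolescent water saline is always replicate 1. Mbp encodes myelin basic protein, which holds the cytoplasmic faces of the membrane together. On antibiotics, Mbp had 930.5, 1519, 1000.1 and 1134 CPM in adult morphine mice and 1382, 814, 1067, 883 and 2732 CPM in adult saline mice, against 1187, 1546, 1693, 2893 and 1270.0 CPM in adolescent morphine mice and 1165, 1161 and 1100.2 CPM in adolescent saline mice. Replicate 5 of adult antibiotics saline and replicate 4 of adolescent antibiotics morphine stood above the rest, the adults and adolescents of each treatment overlapped, and every adolescent morphine value lay above the adolescent saline values. On water, Mbp had 868, 739, 869, 754 and 1657 CPM in adult morphine mice and 1248, 828 and 852 CPM in adult saline mice, against 814, 1281, 1196, 985 and 2740.3 CPM in adolescent morphine mice and 8551, 738, 534, 956 and 1264 CPM in adolescent saline mice. The first adolescent saline value was the highest of all, and the remaining 4 included the lowest of all but overlapped the adults.

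Mobp is a further basic protein of compact myelin. It lies at chr9:120149707-120181484 on the plus strand (GRCm38). On antibiotics, Mobp had 90.2, 195, 90.3 and 125 CPM in adult morphine mice and 149, 68.3, 80.0, 72.7 and 279.9 CPM in adult saline mice, against 122, 149, 164, 278 and 113 CPM in adolescent morphine mice and 109, 112 and 101 CPM in adolescent saline mice. Adolescent morphine values again lay above adolescent saline values, and both adult groups overlapped their adolescent counterparts. On water, Mobp had 66.4, 60.6, 76.3, 60.7 and 155 CPM in adult morphine mice and 92.3, 67.0 and 65.3 CPM in adult saline mice, against 69.7, 106, 117, 93.6 and 260.1 CPM in adolescent morphine mice and 866, 55.5, 35.8, 71.5 and 109 CPM in adolescent saline mice. Without its first value the adolescent saline group held the lowest libraries, next to adults that overlapped it.

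Mog is a glycoprotein on the outermost myelin surface and a late marker of maturation. It lies at chr17:37010743-37023398 on the minus strand (GRCm38). On antibiotics, Mog had 23.7, 38.8, 27.3 and 35.05 CPM in adult morphine mice and 34.7, 20.2, 27.96, 20.4 and 72.5 CPM in adult saline mice, against 42.0, 50.1, 52.5, 89.6 and 37.9 CPM in adolescent morphine mice and 35.4, 36.3 and 36.4 CPM in adolescent saline mice. The adults given saline and morphine overlapped, adult and adolescent morphine mice overlapped narrowly, and adolescent morphine values all lay above adolescent saline values. On water, Mog had 21.3, 22.8, 22.8, 21.2 and 43.2 CPM in adult morphine mice and 34.2, 22.6 and 22.6 CPM in adult saline mice, against 25.8, 36.1, 35.6, 32.3 and 83.2 CPM in adolescent morphine mice and 244, 22.0, 13.2, 30.2 and 37.3 CPM in adolescent saline mice. Most adult values lay close together, and replicate 5 of the adult morphine group was the high one.

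Mag sits on the innermost wrap, facing the axon. It lies at chr7:30899176-30914873 on the minus strand (GRCm38). On antibiotics, Mag had 51.5, 84.1, 56.3 and 66.3 CPM in adult morphine mice and 73.7, 51.4, 64.1, 48.1 and 177 CPM in adult saline mice, against 85.0, 103, 96.0, 166 and 86.0 CPM in adolescent morphine mice and 77.1, 89.6 and 82.9 CPM in adolescent saline mice. The 4 adult morphine values all lay below the 5 adolescent morphine values; the saline groups overlapped. On water, Mag had 56.4, 55.0, 62.8, 59.9 and 113 CPM in adult morphine mice and 75.0, 57.7 and 59.7 CPM in adult saline mice, against 62.4, 82.8, 82.6, 66.0 and 169 CPM in adolescent morphine mice and 565, 46.9, 42.6, 65.2 and 80.6 CPM in adolescent saline mice. All water groups overlapped, and the first adolescent saline value stood alone.

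Cnp encodes CNPase, an early and abundant protein of the myelinating process. It lies at chr11:100574904-100591729 on the plus strand (GRCm38). On antibiotics, Cnp had 133, 184, 142 and 154 CPM in adult morphine mice and 196, 122, 149, 135 and 366 CPM in adult saline mice, against 195, 232, 227, 388 and 193 CPM in adolescent morphine mice and 187, 186 and 187 CPM in adolescent saline mice. No adult morphine value reached the adolescent morphine range, every adolescent morphine value was above the adolescent saline values, and adult saline libraries lay on both sides of the adolescent saline ones. On water, Cnp had 131, 123, 133, 119 and 223 CPM in adult morphine mice and 175, 128 and 129 CPM in adult saline mice, against 146, 194, 180.4, 162 and 371 CPM in adolescent morphine mice and 1134, 133, 114, 161 and 198 CPM in adolescent saline mice. Adult values on water lay between the extremes of the adolescent ones.

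Sox10 is the transcription factor that marks the lineage at all its stages and is needed for terminal differentiation. It lies at chr15:79154908-79165240 on the minus strand (GRCm38). On antibiotics, Sox10 had 24.3, 34.1, 20.9 and 26.5 CPM in adult morphine mice and 26.3, 21.1, 26.2, 22.8 and 44.4 CPM in adult saline mice, against 26.0, 32.5, 26.9, 38.9 and 29.8 CPM in adolescent morphine mice and 23.2, 28.2 and 29.7 CPM in adolescent saline mice. Groups overlapped throughout. On water, Sox10 had 20.3, 20.4, 21.5, 20.8 and 30.7 CPM in adult morphine mice and 24.8, 24.7 and 23.8 CPM in adult saline mice, against 20.1, 26.8, 25.6, 23.3 and 38.8 CPM in adolescent morphine mice and 93.9, 25.7, 21.7, 26.3 and 24.7 CPM in adolescent saline mice. The lowest values of all were in the adult morphine and adolescent morphine groups, and the groups overlapped.

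Myrf encodes the membrane-bound factor that switches on myelin genes in oligodendrocytes leaving the cell cycle. It lies at chr19:10208272-10240748 on the minus strand (GRCm38). On antibiotics, Myrf had 20.1, 32.4, 24.3 and 29.9 CPM in adult morphine mice and 28.6, 21.0, 27.8, 20.8 and 61.8 CPM in adult saline mice, against 26.7, 34.8, 30.0, 43.5 and 27.4 CPM in adolescent morphine mice and 24.6, 24.6 and 23.5 CPM in adolescent saline mice. Adolescent morphine values all lay above adolescent saline values, and each adult group overlapped its adolescent counterpart. On water, Myrf had 18.3, 19.8, 19.5, 20.7 and 35.8 CPM in adult morphine mice and 27.9, 21.9 and 19.1 CPM in adult saline mice, against 16.5, 24.0, 21.0, 18.1 and 45.7 CPM in adolescent morphine mice and 109.5, 15.1, 12.02, 17.5 and 23.4 CPM in adolescent saline mice. Without the first value, every adolescent saline library on water lay below every adolescent saline library on antibiotics.

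**Figure D2:**
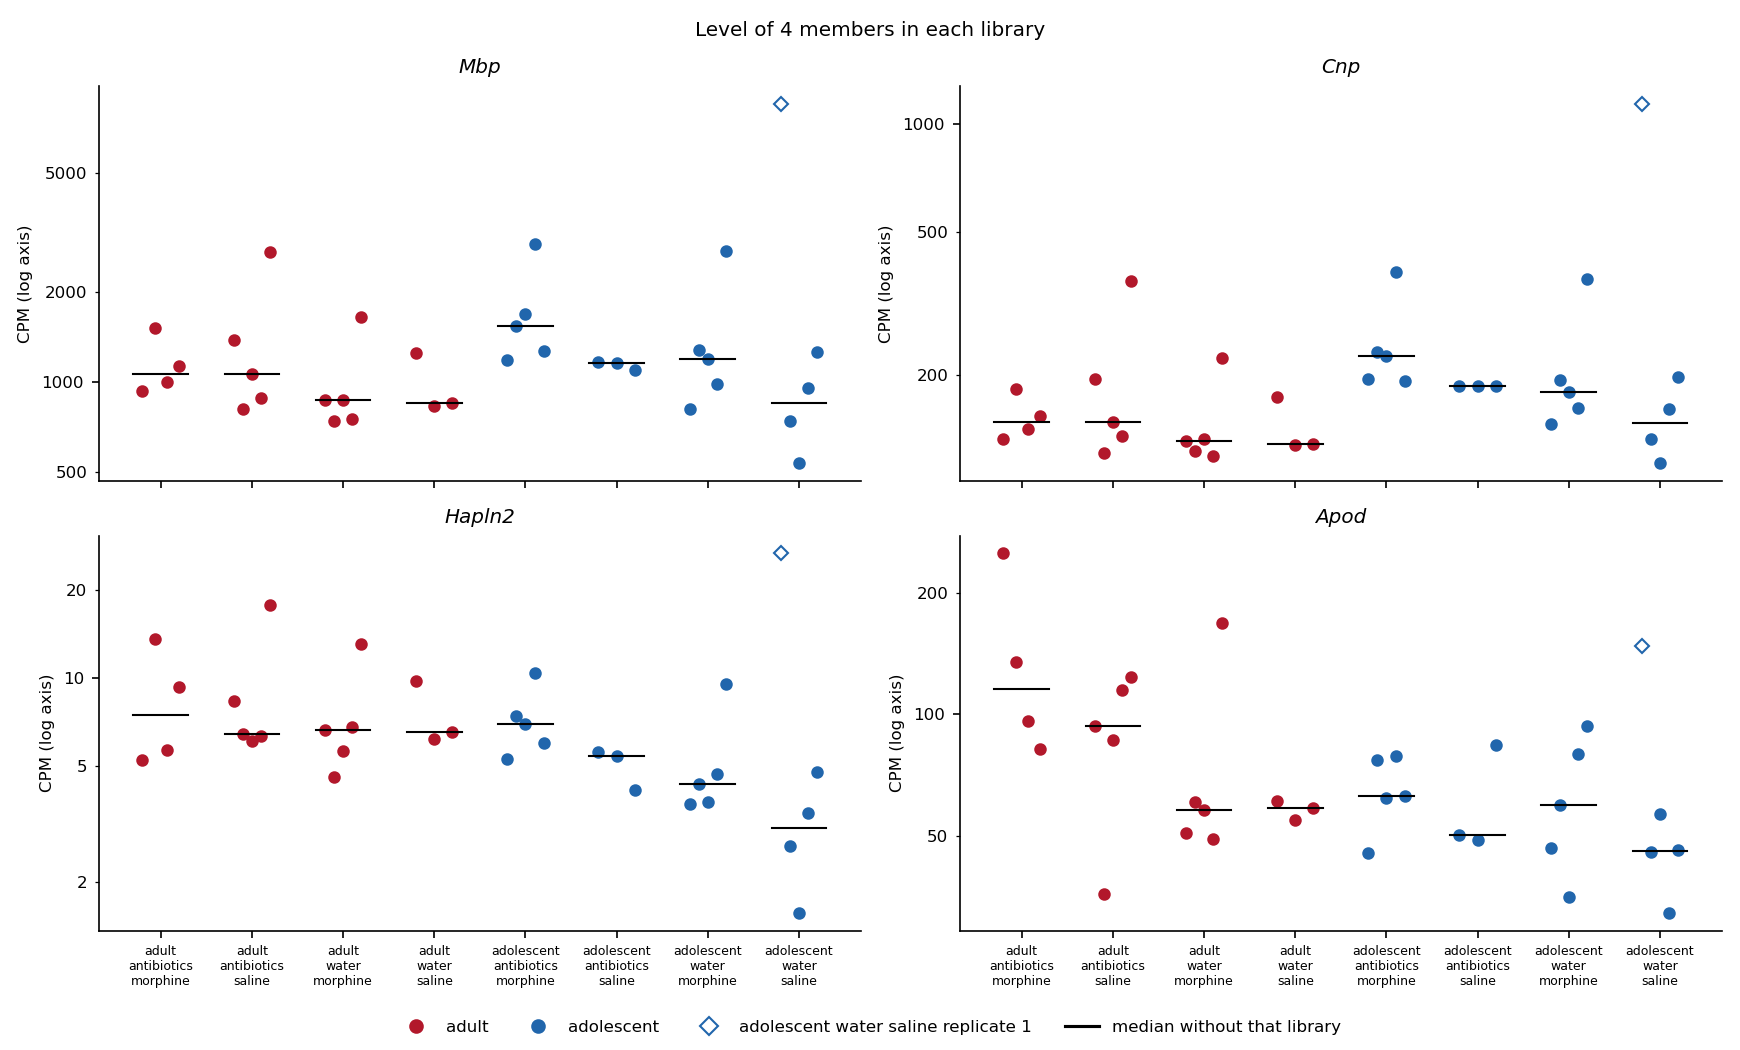
Level in CPM (log axis) of Mbp, Cnp, Hapln2 and Apod, 1 point per library in the 8 groups, with the median of each group drawn without adolescent water saline replicate 1, the open diamond. That library is highest for Mbp, Cnp and Hapln2 but not for Apod, whose highest value is in adult antibiotics morphine replicate 1.

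Tmem125 encodes a transmembrane protein. It lies at chr4:118540941-118544044 on the minus strand (GRCm38). On antibiotics, Tmem125 had 3.33, 4.06, 4.00 and 3.17 CPM in adult morphine mice and 3.84, 2.32, 3.70, 3.55 and 7.61 CPM in adult saline mice, against 4.65, 6.28, 5.62, 9.27 and 4.20 CPM in adolescent morphine mice and 4.47, 5.03 and 5.35 CPM in adolescent saline mice. Every adult morphine value lay below every adolescent morphine value. On water, Tmem125 had 2.34, 2.96, 2.12, 2.79 and 4.76 CPM in adult morphine mice and 4.02, 3.29 and 3.59 CPM in adult saline mice, against 3.97, 4.15, 5.01, 3.27 and 9.92 CPM in adolescent morphine mice and 21.0, 4.08, 2.19, 3.20 and 4.76 CPM in adolescent saline mice. The adult morphine libraries reached lower than the adolescent morphine ones, but the groups overlapped.

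Hapln2 encodes a link protein that ties hyaluronan to matrix at nodes of Ranvier. It lies at chr3:88021750-88027583 on the minus strand (GRCm38). On antibiotics, Hapln2 had 5.24, 13.7, 5.67 and 9.31 CPM in adult morphine mice and 8.33, 6.43, 6.10, 6.33 and 17.8 CPM in adult saline mice, against 5.28, 7.40, 6.98, 10.4 and 6.00 CPM in adolescent morphine mice and 5.59, 5.38 and 4.11 CPM in adolescent saline mice. Each adult saline value was above the 3 adolescent saline values. On water, Hapln2 had 6.62, 4.56, 5.63, 6.81 and 13.1 CPM in adult morphine mice and 9.75, 6.19 and 6.54 CPM in adult saline mice, against 3.70, 4.34, 3.76, 4.67 and 9.51 CPM in adolescent morphine mice and 26.7, 2.66, 1.56, 3.44 and 4.76 CPM in adolescent saline mice. Without the first adolescent saline value, all 3 adult saline values lay above the 4 that remained.

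Cntn2 is an adhesion molecule of the juxtaparanode, which neurons also make. It lies at chr1:132509427-132543256 on the minus strand (GRCm38). On antibiotics, Cntn2 had 79.3, 124, 91.1 and 112 CPM in adult morphine mice and 106, 107, 110.4, 83.7 and 137 CPM in adult saline mice, against 79.8, 97.3, 96.5, 108 and 85.3 CPM in adolescent morphine mice and 84.2, 82.8 and 76.4 CPM in adolescent saline mice. Ages overlapped in both treatments. On water, Cntn2 had 95.4, 92.1, 99.6, 95.1 and 124 CPM in adult morphine mice and 120.3, 103 and 102 CPM in adult saline mice, against 71.2, 92.4, 90.4, 86.3 and 136 CPM in adolescent morphine mice and 193, 68.2, 55.3, 80.5 and 84.0 CPM in adolescent saline mice. Leaving out the first value, the adult saline libraries all lay above the adolescent saline ones.

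Apod encodes a secreted lipid-binding lipocalin, made by oligodendrocytes and also by fibroblasts of the meninges. It lies at chr16:31296192-31314808 on the minus strand (GRCm38). On antibiotics, Apod had 250.3, 135, 96.3 and 82.2 CPM in adult morphine mice and 93.5, 36.0, 86.4, 115 and 124 CPM in adult saline mice, against 45.2, 77.1, 62.1, 78.7 and 62.8 CPM in adolescent morphine mice and 50.1, 48.7 and 83.9 CPM in adolescent saline mice. The first adult morphine library was far above all others, and every adult morphine value lay above the adolescent morphine ones. On water, Apod had 50.8, 60.6, 57.9, 49.0 and 169 CPM in adult morphine mice and 61.0, 54.7 and 58.7 CPM in adult saline mice, against 46.5, 59.5, 35.3, 79.7 and 93.3 CPM in adolescent morphine mice and 148, 45.7, 56.5, 32.2 and 46.0 CPM in adolescent saline mice. Replicate 5 of the adult morphine group stood above its group, and the groups overlapped. The 7 meninges and fibroblast genes had a summed level of 33.9 to 222 CPM in adult antibiotics morphine, 21.3 to 93.4 CPM in adult antibiotics saline, 30.9 to 163 CPM in adult water morphine and 44.7 to 49.8 CPM in adult water saline mice. In adolescents it was 21.7 to 59.6 CPM on antibiotics with morphine, 40.6 to 79.1 CPM on antibiotics with saline, 24.7 to 80.2 CPM on water with morphine and 32.9 to 91.6 CPM on water with saline. The highest belongs to adult antibiotics morphine replicate 1, the library highest in Apod, which also had 45.4 CPM of the fibroblast proteoglycan Dcn. The next library in both was adult water morphine replicate 5, with 169 CPM of Apod and 163 CPM of these genes. Adult antibiotics saline replicate 4 had 115 CPM of Apod with 93.4 CPM. Some libraries ran apart. Adult antibiotics saline replicate 5 had 124 CPM of Apod with 45.7 CPM of these genes. For adolescent water saline the values were 148 CPM with 40.7 CPM in replicate 1 and 56.5 CPM with 91.6 CPM in replicate 3. The part of these cells in the Apod values was not tested.

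Adults were compared with adolescents within each treatment and averaged over the 4 treatments. Averaged over treatments, Tmem125 was the 1 member of 32 that passed with 35 libraries, where 20.3% of all genes tested passed. It fell by 0.69 on the log2 scale in adults (SE 0.25, adjusted p = 0.0478 by edgeR's quasi-likelihood test, threshold 0.05). An unadjusted p under 0.05 was reached by 8 members, with the share of all genes at that cut not given here. With the 34 libraries 3 members passed, against 25.3% of all genes, and all 3 were higher in adults. Cntn2 rose by 0.31 (SE 0.08, edgeR adjusted p = 0.00785), Hapln2 by 0.71 (SE 0.20, edgeR adjusted p = 0.00991) and Apod by 0.59 (SE 0.20, edgeR adjusted p = 0.0293). Tmem125 stood at -0.43 there (edgeR adjusted p = 0.0546). The median of the 32 log2 fold changes was -0.23 with 35 libraries and 0.06 with 34, against 0.00 and 0.01 over all genes tested, with 6 and 18 members positive. The calls rest on few libraries: of the 35 fits that each left out 1 library, 24 called no member and 8 called Tmem125 alone. For most of these fits the share of all genes that passed is not given here. Without adult antibiotics saline replicate 5, Mog, Cnp, Ugt8a, Tspan2 and Tmem125 all passed as lower in adults, against 21% of all genes, and without adolescent water saline replicate 3 Mog, Cnp, Ugt8a and Tmem125 did, against 20.3%.

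Within single treatments no member passed by edgeR's test with either set of libraries. On water with saline, 3.39% of all genes tested passed with 35 libraries and 4.56% with 34. The members' median log2 difference, adult over adolescent, was -0.78 with 35 libraries (1 of 32 positive) and 0.32 with 34 (28 of 32 positive), so its sign turned on 1 library. Cldn11 stood at -1.63 (SE 0.69, edgeR adjusted p = 0.19) and -0.05, Mal at -1.64 and 0.00, and the tetraspanin Tspan2 at -1.33 and -0.10, with 35 and with 34 libraries. On water with morphine, 0.626% of all genes tested passed with 35 libraries and 1.52% with 34, and the members' median was -0.24 with 35 libraries and -0.24 with 34 (10 and 10 of 32 positive); without adolescent water morphine replicate 5 it was 0.076. Tmem125 had -0.81 (edgeR adjusted p = 0.534), Mog -0.69 and Tspan2 -0.57. On antibiotics with saline, 1.39% of all genes tested passed with 35 libraries and 3.39% with 34, and the median was 0.26 with 35 libraries and 0.27 with 34 (28 and 29 of 32 positive), but -0.13 without adult antibiotics saline replicate 5, with Cntn2 at 0.42 (edgeR adjusted p = 0.487), Hapln2 at 0.85 and Plekhb1, a membrane protein with a pleckstrin domain, at 0.49. On antibiotics with morphine, 1.87% of all genes tested passed with 35 libraries and 4.23% with 34, and the median was -0.27 with 35 libraries and -0.27 with 34 (3 and 3 of 32 positive), and -0.46 to -0.13 over the fits that left out 1 of these libraries. There Apod had 1.12 (edgeR adjusted p = 0.182 with 35 libraries and 0.0858 with 34), the membrane glycoprotein Opalin -1.07 and Tmem125 -0.72. Members with an unadjusted p under 0.05 numbered 9, 0, 0 and 1 in these 4 comparisons with 35 libraries and 2, 1, 2 and 8 with 34. The share of all genes at that unadjusted cut is not given here, so these counts have no background. DESeq2 called 0 members in each, and limma-voom with sample weights called Cntn2 on water with saline (log2 difference 0.50, adjusted p = 0.0384), where 9.5% of all genes passed, and 0 in the other 3.

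Morphine was compared with saline in each of 4 pairs of groups, and again no member passed by edgeR's test with 35 or 34 libraries. In adults on antibiotics, 0% of all genes tested passed with 35 libraries and 0.0156% with 34. The members' median log2 difference, morphine over saline, was -0.26 with 35 libraries and -0.26 with 34 (3 and 3 of 32 positive), but 0.12 without adult antibiotics saline replicate 5, so its sign turned on 1 library. Opalin stood at -0.96 (SE 0.58, edgeR adjusted p = 0.711), Apod at 0.64 and Car2 at -0.28. In adults on water, 0% of all genes tested passed with 35 libraries and 0% with 34, and the median was 0.01 with 35 libraries and 0.00 with 34 (19 and 17 of 32 positive), and -0.21 to 0.18 over the fits that left out 1 of these libraries, turning negative without adult water saline replicate 3, adult water saline replicate 5 or adult water morphine replicate 5, with Apod at 0.42 and Ninj2 at 0.49. In adolescents on antibiotics, 0.0466% of all genes tested passed with 35 libraries and 0.171% with 34. All 32 members were positive there in both fits, with a median of 0.39 with 35 libraries and 0.39 with 34, beside 0.00 over all genes tested; without adolescent antibiotics morphine replicate 4 the median was 0.17. Mal stood at 0.66 (edgeR adjusted p = 0.873), Mog at 0.59 and Tspan2 at 0.55. In adolescents on water, 0.331% of all genes tested passed with 35 libraries and 0.104% with 34, and the direction of the members turned on 1 saline library. Their median was -0.68 with 35 libraries, all 32 negative, and 0.60 with 34, all 32 positive. Ugt8a stood at -0.95 and 0.67, Gsn, the actin-severing protein gelsolin, at -0.78 and 0.60, and Sox10 at -0.54 and 0.14. Unadjusted p under 0.05 was reached by 0, 0, 0 and 0 members with 35 libraries and by 2, 0, 0 and 6 with 34. For this cut too the share of all genes is not given. DESeq2 and limma-voom called 0 members in each. Averaged over the 4 pairs, 0.316% of all genes tested passed with 35 libraries and 1.3% with 34, 0 members passed or reached an unadjusted p under 0.05 in either fit by edgeR, DESeq2 and limma-voom called 0, and their median was -0.11 with 35 and 0.19 with 34 libraries.

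Antibiotics were compared with water in the same way, and no member passed by edgeR's test in any pair. In adults given morphine, 1.92% of all genes tested passed with 35 libraries and 3.52% with 34, and the members' median log2 difference, antibiotics over water, was 0.04 with 35 libraries and 0.03 with 34 (18 and 17 of 32 positive). Over the fits that left out 1 of these libraries it was -0.094 to 0.28, negative without adult antibiotics morphine replicate 2 and without adult water morphine replicates 2, 3 or 4. Apod stood at 0.86 (SE 0.43, edgeR adjusted p = 0.375), Ninj2 at -1.09 and Car2 at -0.31; a fit of these 2 groups alone called Car2 (edgeR adjusted p = 0.0403), where 1.44% of all genes passed. In adults given saline, 0.031% of all genes tested passed with 35 libraries and 0.229% with 34, and the median was 0.33 with 35 libraries and 0.33 with 34 (30 and 30 of 32 positive), but -0.051 without adult antibiotics saline replicate 5, with Mobp at 0.80 and Mal at 0.77. In adolescents given morphine, 1.11% of all genes tested passed with 35 libraries and 2.03% with 34, and the median was 0.17 with 35 libraries and 0.17 with 34 (27 and 27 of 32 positive), but -0.023 without adolescent antibiotics morphine replicate 4 and 0.50 without adolescent water morphine replicate 5, with Hapln2 at 0.46 and Myrf at 0.37. In adolescents given saline, 0.0103% of all genes tested passed with 35 libraries and 0% with 34. Their members' median was -0.85 with 35 libraries (32 negative) and 0.38 with 34 (31 positive). There the connexin Gjb1 stood at -1.31 and 0.10, Ugt8a at -1.25 and 0.35, and Car2 at -0.45 and -0.13. Unadjusted p under 0.05 was reached by 0, 0, 0 and 1 members with 35 libraries and by 3, 0, 0 and 0 with 34, and DESeq2 and limma-voom called 0 in each. Averaged over the 4 pairs, 10.2% of all genes tested passed with 35 libraries and 13% with 34, and 0 members did. Car2 was the nearest, at -0.25 (SE 0.10, edgeR adjusted p = 0.115). The members' median was -0.06 with 35 and 0.21 with 34 libraries and 0.0078 without adolescent water morphine replicate 5. With 35 and 34 libraries, 1 and 8 members had an unadjusted p under 0.05. No share of all genes is given for the unadjusted counts of the pairs or of the average. For this average DESeq2 called 0 members and limma-voom with sample weights called 6: Mobp, Mal, Apod, Nkx6-2 and Myrf as higher and Car2 as lower on antibiotics, where 16.5% of all genes passed.

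Differences between these effects were tested as well, and 0 members passed by edgeR, DESeq2 or limma-voom. For the morphine effect in adults minus that in adolescents, 0.00517% of all genes tested passed with 35 libraries and 0.00519% with 34, and the members' median was 0.02 with 35 libraries and -0.63 with 34; of 35 fits that each left out 1 library, 20 gave a negative median. For the antibiotic effect in adults minus that in adolescents, 0% of all genes tested passed with 35 libraries and 0% with 34, with medians of 0.51 and -0.08. For the morphine effect on antibiotics minus that on water, 0.00517% of all genes tested passed with 35 libraries and 0.00519% with 34, with medians of 0.37 and -0.21. Members with an unadjusted p under 0.05 numbered 0, 0 and 0 with 35 libraries and 5, 1 and 0 with 34, again without a share of all genes at that cut. The comparisons that involve adolescent water saline mice all share those libraries: with replicate 1, age on water with saline, morphine in adolescents on water and antibiotics in adolescents given saline had members' medians of -0.78, -0.68 and -0.85, and without it 0.32, 0.60 and 0.38.

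**Figure D3:**
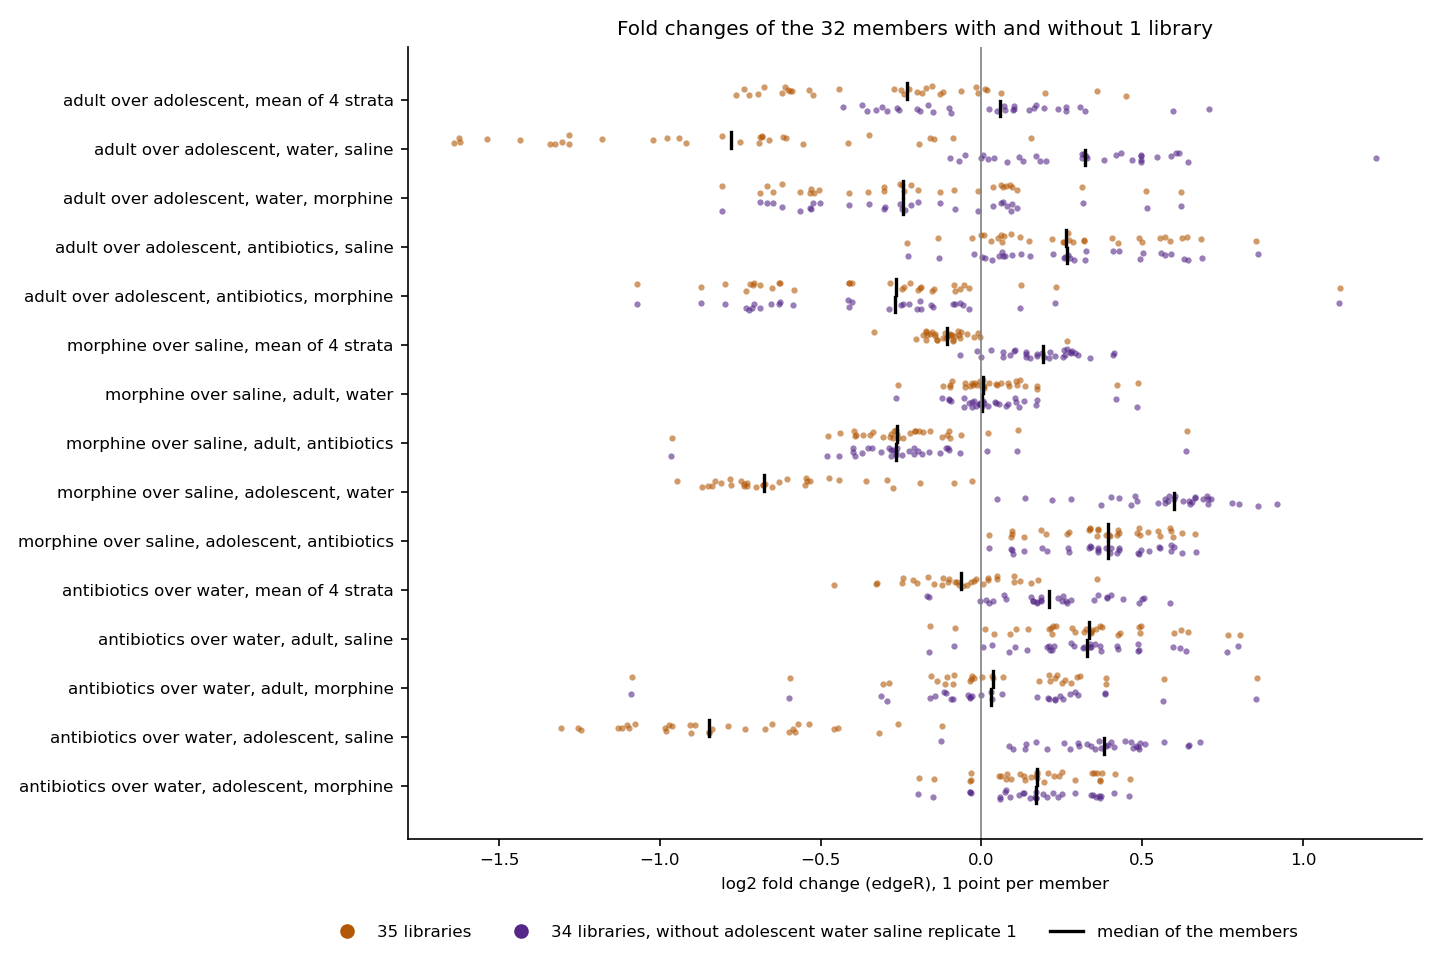
Log2 fold changes (edgeR) of the 32 members in 15 comparisons, 1 point per member, in orange with all 35 libraries and in purple with the 34 libraries without adolescent water saline replicate 1; black bars are medians. In the 3 pairs that use adolescent water saline mice, the medians are -0.78, -0.68 and -0.85 with that library and 0.32, 0.60 and 0.38 without it; in the other pairs both medians nearly coincide.

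Because whole libraries differed in the level of all members, the ages were also compared at an equal level of other oligodendrocyte genes, with the mean log2 CPM of 35 mature oligodendrocyte genes outside the set (Enpp2, Tppp, Il33 and others) as a term in the fit. Each gene has its own fitted slope on that mean, so the result is an age difference at an equal level of those genes. The term was chosen after the data were seen. With 35 libraries 22 of the 32 members then passed, against 25.9% of all genes tested, 11 higher and 11 lower in adults; with 34 libraries 21 did, against 27.4%, 10 higher and 11 lower, and all 21 were among the 22. At an equal level of the other genes, Cnp fell by 0.30 on the log2 scale (SE 0.02, edgeR adjusted p = 2.38e-12), Mog by 0.35, Cldn11 by 0.32, Mag by 0.26, Mal by 0.24 and Mbp by 0.15 (SE 0.03, edgeR adjusted p = 0.000324). So did the lipid enzymes Ugt8a, by 0.34, and Fa2h, which hydroxylates myelin fatty acids, by 0.16, together with Tspan2 (-0.29), Opalin (-0.20) and Tmem125 (-0.41). Of these lower members only Tmem125 still passed when lineage transcription factors set the level instead. Mobp was not called (-0.14, edgeR adjusted p = 0.134), nor was Gsn. On the higher side stood both members of the node region, Hapln2 at 0.71 (SE 0.08, edgeR adjusted p = 4.92e-09) and Cntn2 at 0.32. With them were Apod (0.59), transferrin (0.33), the cytoskeletal protein Ermn (0.29), the receptor Gpr37 (0.26), the enzymes Aspa (0.25) and Qdpr (0.17), Plekhb1 (0.20), Tmem88b (0.13) and Myrf (0.11). Myrf passed with 35 libraries and not with 34 (edgeR adjusted p = 0.0861).

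Within single treatments, with the term and 34 libraries, 11 members were higher in adults in all 4 treatments, 10 were lower in all 4 and 11 were of mixed direction. The 4 treatments hold different libraries but share the fit. Calls within a treatment numbered 4 higher and 4 lower on water with saline, against 5.6% of all genes, and 5 higher and 7 lower on water with morphine, against 2.35%. On antibiotics they numbered 5 higher and 7 lower with saline, against 4.53%, and 6 higher and 7 lower with morphine, against 6.71%. Cnp, Mog, Cldn11 and Trf passed in all 4. How many of all genes tested would keep 1 direction, or pass, in all 4 treatments was not counted. Cnp stood at -0.35 on water with saline, -0.32 on water with morphine, -0.24 on antibiotics with saline and -0.34 on antibiotics with morphine. Trf stood at 0.33, 0.31, 0.28 and 0.32 in the same order. Hapln2 was highest on water with saline (0.95) and lowest on antibiotics with saline (0.52), a difference that was not tested.

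A comparison without a fit took the log2 level of each member minus the mean of the other 31 in the same library. Each member's level was first set to 0 at its own median over the 35 libraries. For Cnp this difference ran from -0.30 to -0.04 in the 17 adult libraries and from 0.03 to 0.40 in the 18 adolescent libraries. Cnp was the 1 member of 32 whose ages did not overlap, with 35 as with 34 libraries. For genes of other cells this measure gives no background, since the yardstick is the members' own level. For each gene's own level, with no yardstick, the ages did not overlap for 0.109% of all genes tested with 35 libraries and 0.176% with 34. Hapln2 averaged 0.26 ± 0.23 in adults and -0.32 ± 0.19 in adolescents (SD, n = 17 and 18), with an overlap between -0.09 and -0.06. Tmem125 averaged -0.19 ± 0.18 in adults and 0.14 ± 0.18 in adolescents. In the 34 libraries 18 members had a higher mean in adults and 14 a lower one. These differences sum to 0 over the members in each library, so a split to both sides is set in advance.

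How many members lay on each side depended on the genes chosen as the yardstick. With a term from the 32 members themselves, 11 were called higher and 13 lower in adults (25.8% of all genes passed). Each member is part of that yardstick, so a near-even split is largely set in advance. With a term from 10 transcription factors of the lineage outside the set, 17 were called higher and 1 lower, Tmem125 (25.6% of all genes). Under that term Mbp (0.10), Fa2h (0.10), Opalin (0.03) and Mal (0.02) turned positive, while Cnp (-0.09) and Mog (-0.12) stayed negative, none of them called. Olig1, Nkx2-2, Sox8 and Zfp488 of those 10 factors were themselves called lower in adults. The 28 libraries without pancreatic hormone counts gave 9 higher and 10 lower (20.7% of all genes), and limma-voom with the term gave 12 higher and 11 lower (30.2% of all genes). In all, 9 members passed with the same sign in all these fits and in every fit that left out 1 library: Hapln2, Cntn2, Trf, Ermn, Gpr37, Aspa, Plekhb1 and Qdpr as higher and Tmem125 as lower. How many of all genes tested would pass the same joint rule was not counted.

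**Figure D4:**
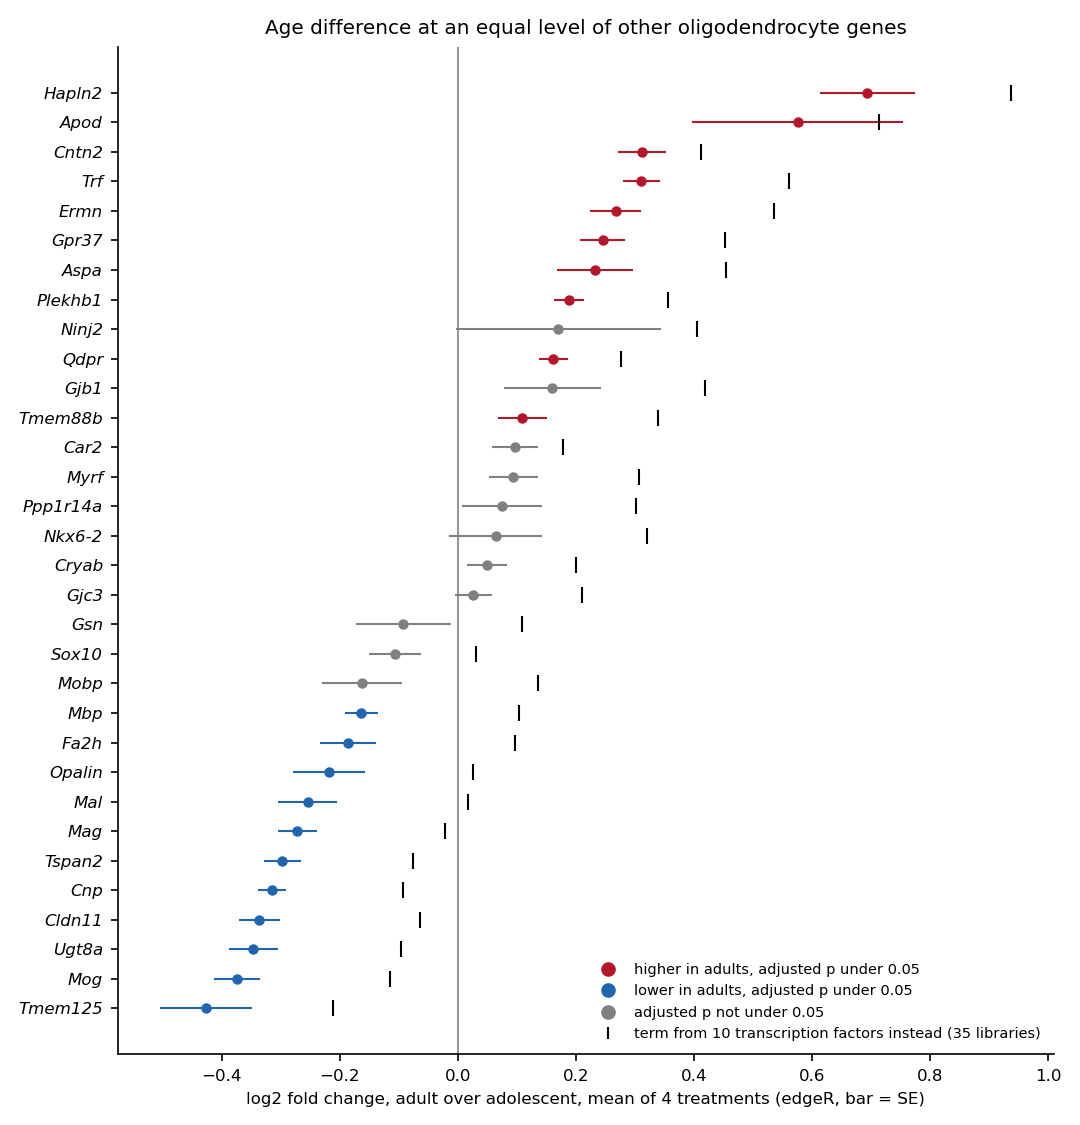
Log2 difference, adult over adolescent and averaged over 4 treatments, of each member at an equal level of 35 other oligodendrocyte genes (edgeR, 34 libraries; points with SE, coloured by call), with black ticks for the same difference when 10 transcription factors set the level (35 libraries). Hapln2 at 0.69 and Tmem125 at -0.43 mark the ends, and every tick lies to the right of its point.

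The same term was used for antibiotics against water, averaged over the 4 pairs. With 35 libraries 12 members passed, against 14.1% of all genes tested, 10 higher and 2 lower on antibiotics; with 34 libraries 11 did, against 13.2%. At an equal level of the other oligodendrocyte genes, Mobp rose by 0.40 (SE 0.07, edgeR adjusted p = 0.000169), the homeobox factor Nkx6-2 by 0.37, Mal by 0.33, Cldn11 by 0.27, Myrf by 0.26 and Tspan2 by 0.25 (SE 0.03, edgeR adjusted p = 3.41e-07). Hapln2 (0.25), Mog (0.20), Mbp (0.18) and Cnp (0.09) also passed as higher, Hapln2 with 35 libraries only (edgeR adjusted p = 0.0517 with 34). Car2 fell by 0.23 (SE 0.04, edgeR adjusted p = 3.65e-05) and Qdpr by 0.07. A term from the members themselves gave 8 higher and 7 lower (14.2% of all genes), a near-even split that such a term largely sets in advance. A term from the transcription factors gave 6 and 1 (13.6%), the 28 libraries 8 and 2 (11%) and limma-voom 10 and 2 (16%). Mobp, Nkx6-2, Mal, Cldn11, Myrf, Tspan2 and Car2 passed with the same sign in all of them and in every fit that left out 1 library. Here too the share of all genes passing this joint rule was not counted.

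Other stages of the lineage and the cells around it were read from further lists. Of 12 oligodendrocyte precursor genes, 7 were lower in adults averaged over treatments with 35 and with 34 libraries and 0 higher, with a median of -0.16 and -0.13. Among them Gpr17, a receptor of committed precursors, fell by 0.63 with 35 libraries (edgeR adjusted p = 5.87e-06), the channel subunit Cacng4 by 0.46 and the sialidase Neu4 by 0.42. Of the newly formed oligodendrocyte genes, 7 of 12 were lower with 35 libraries and 6 of 11 with 34, among them the kinase Fyn, which fell by 0.23. The 35 other mature genes gave 2 higher and 5 lower with 35 libraries and 5 higher and 7 lower with 34; Il33, an alarmin cytokine made by oligodendrocytes in mice, rose by 0.82 and Tppp, a tubulin-binding protein, fell by 0.14. Of 13 genes of the axonal node and paranode, 4 were higher and 2 lower in adults, with the potassium channel Kcna1 at 0.20. For antibiotics against water, 7 of 12 microglial genes were lower with 35 libraries and 9 with 34, with the fractalkine receptor Cx3cr1 at -0.24. The background shares for these 2 averages are those given above: 20.3% and 25.3% of all genes for age and 10.2% and 13% for antibiotics.

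**Figure D5:**
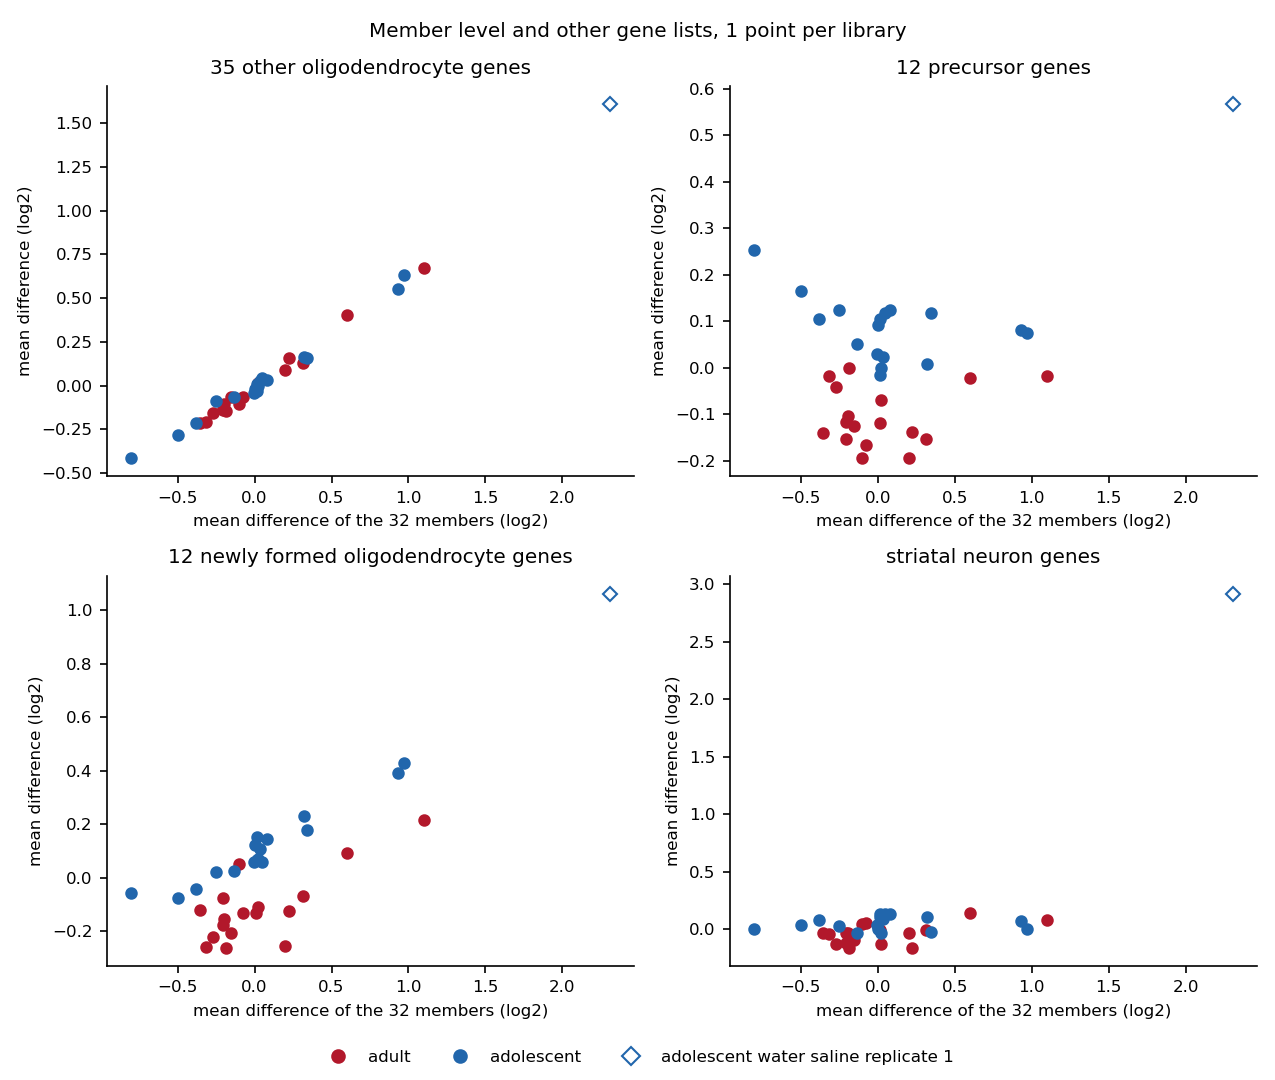
Mean level of 4 other gene lists against the mean level of the 32 members, 1 point per library, each as log2(CPM + 1) minus the gene's median, averaged over genes. The 35 other oligodendrocyte genes climb with the members, precursor genes are at or below 0 in all adult libraries, and striatal genes are high in adolescent water saline replicate 1 only (2.92).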

How the data were processed

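Gene counts of 37 libraries were deposited by the authors as raw counts per Ensembl gene, in columns named like gene count files of STAR, per the file headers. STAR 2.7.10a, mm10 and DESeq2 are named, with no role, per the submitters' processing notes. Per the labels, extraction used RNeasy Mini columns (Qiagen) and polyA libraries came from an ABclonal Fast RNA-seq kit (V2). Neither annotation release nor strand setting is given in the sources used here, so reads of overlapping antisense genes cannot be separated. Symbols were matched to 52073 of 56980 identifiers. Of these libraries, 35 with at least 1000000 counts were used. They held 10630727 to 31560468 counts each; the spread between libraries sets the precision of the tests.

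CPM is counts per 1000000 of the TMM-scaled total. The fit on 8 groups used edgeR 4.0.16 in R 4.3.3 (quasi-likelihood, robust, TMM, filterByExpr, 19332 genes with 35 libraries and 19253 with 34), with Benjamini-Hochberg adjustment over all genes and a threshold of 0.05; a script checked on simulated data ran the fits. It gave 12 pairs, 3 averages and 3 interactions. Alternatives were DESeq2 1.42.0, limma-voom (limma 3.58.1) with sample weights, DESeq2 size factors, no filter, the compared groups alone, a replicate block, all 37 libraries and leaving out each library. The members' medians without each library, and fits with a term for other oligodendrocyte genes (mean log2 CPM, prior count 2) and on the 28 libraries without pancreatic hormone counts, were added after the data were seen. The members and lists were chosen with earlier results of these data known. All members could be named; per comparison, up to 8 past the threshold in each direction were named, or otherwise the 3 with the smallest p. Values per library were given for Mbp, Mog, Mag, Mobp, Cnp, Sox10, Myrf and each member that passed in edgeR's fit of the 8 groups with 35 or 34 libraries and no term. Replicate libraries of a group differed by more than sampling noise (chi-square per degree of freedom of at least 1.78), so none was counted as a copy of another. Adult antibiotics saline replicate 2 gave 34.4 to 53.9 against its group mates, which gave 3.97 to 13.6 among themselves. Pairs with adolescent water saline replicate 1 gave 37.7 to 64.0. The former library was kept in the fits with 35 and with 34 libraries, and the cause of its difference was not tested. Promoter windows and motif letters come from RefSeq sequence of GRCm38.p6, exon lengths from GENCODE M21.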

Additional observations from a re-analysis of the deposited data

Results flagged for a closer look

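In the groups of 4 or 5 libraries, the 11 genes with values per library gave 66 combinations of gene and group, and in 38 of them 1 library lay far from the rest of its group by Dixon's criterion. Chance flags about 1 in 20 groups, and the genes share their libraries, so these are not 38 separate events. The 38 values come from 5 libraries.

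Adolescent water saline replicate 1 stood above its group for all 11 genes. It had 8551 CPM of Mbp, 244 CPM of Mog, 565 CPM of Mag, 866 CPM of Mobp, 1134 CPM of Cnp, 93.9 CPM of Sox10 and 109.5 CPM of Myrf. It also had 21.0 CPM of Tmem125, 148 CPM of Apod, 26.7 CPM of Hapln2 and 193 CPM of Cntn2. This is the library with 53.2 CPM of the striatal receptor gene Drd2.

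Adolescent water morphine replicate 5 stood above its group with 2740.3 CPM of Mbp, 83.2 CPM of Mog, 169 CPM of Mag, 260.1 CPM of Mobp, 371 CPM of Cnp, 45.7 CPM of Myrf, 9.92 CPM of Tmem125 and 9.51 CPM of Hapln2. Adolescent antibiotics morphine replicate 4 did so with 89.6 CPM of Mog, 166 CPM of Mag and 388 CPM of Cnp.

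Adult water morphine replicate 5 stood above its group with 1657 CPM of Mbp, 43.2 CPM of Mog, 113 CPM of Mag, 155 CPM of Mobp, 223 CPM of Cnp, 30.7 CPM of Sox10, 35.8 CPM of Myrf, 169 CPM of Apod, 13.1 CPM of Hapln2 and 124 CPM of Cntn2. Adult antibiotics saline replicate 5 did so with 72.5 CPM of Mog, 177 CPM of Mag, 44.4 CPM of Sox10, 61.8 CPM of Myrf, 7.61 CPM of Tmem125 and 17.8 CPM of Hapln2. In these 4 libraries the mean log2 level of the striatal genes, set to each gene's median, was at most 0.14, against 2.92 in adolescent water saline replicate 1.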

How the results depend on the processing

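The counts of members past the threshold stayed at 0 for the 12 pairs under DESeq2, DESeq2 size factors, no filter, all 37 libraries and the replicate block. For age averaged over treatments (1 member), DESeq2 gave 3 (20.6% of all genes passed) and limma-voom 4 (30.1%). No filter gave 0, the 28 libraries 0 and the replicate block 0, with no share of all genes at hand for these. The fits that left out 1 library gave 0 to 5. For antibiotics averaged (0 members), limma-voom gave 6 (16.5% of all genes), and leaving out 1 library gave 0 to 1. The share of all genes is not given for most of the fits that left out 1 library. Limma-voom called 1 member for age on water with saline, and the fit of the compared groups alone 1 for antibiotics in adults given morphine. The term for other oligodendrocyte genes raised the counts, with 35 and 34 libraries, to 9 and 8 for age on water with saline (6.19% and 5.6% of all genes), 12 and 12 on water with morphine (2.26% and 2.35%), 10 and 12 on antibiotics with saline (3.95% and 4.53%), 13 and 13 on antibiotics with morphine (7.06% and 6.71%), and 22 and 21 averaged. It gave 1 and 1 for morphine in adults on antibiotics (Opalin; 0.145% and 0.13% of all genes). For antibiotics it gave 1 and 1 in adults given saline (Tspan2, against 0.279% and 0.39%), 2 and 3 in adolescents given morphine (Tspan2 and Myrf, then also Cldn11, against 2.46% and 2.75%), 8 and 9 in adults given morphine (3.9% and 4.67%), and 12 and 11 averaged, or 7 with a term from transcription factors. Without adolescent water saline replicate 1 the members' median turned to 0.32 for age (water, saline), 0.60 for morphine (adolescents, water) and 0.38 for antibiotics in adolescents given saline, and moved to -0.63 for age by morphine. Leaving out each library in turn, the medians ran from -1.002 to 0.32, -1.01 to 0.60 and -1.06 to 0.38 in those 3 pairs. Leaving out 1 library gave log2 ranges of -1.89 to 0.0046 for Mal (age, water, saline), -0.72 to 0.14 for Sox10, -1.32 to 0.67 for Ugt8a and -1.06 to 0.60 for Gsn (morphine, adolescents, water), -1.56 to 0.10 for Gjb1 and -1.50 to 0.35 for Ugt8a (antibiotics, adolescents, saline), and -0.085 to 0.74 for Gsn and -0.14 to 0.75 for Hapln2 (antibiotics by morphine). In all of these the reversal came without adolescent water saline replicate 1. Apod for morphine in adults on water ran from -0.092, without adult water morphine replicate 5, to 0.54. For morphine in adolescents on water, Ugt8a turned to 0.24 and Gsn to 0.29 under limma-voom, and with the term to 0.046 and 0.087 for Ugt8a and 0.016 and 0.17 for Gsn, with 35 and 34 libraries. For antibiotics in adolescents given saline, Ugt8a turned to 0.21 under limma-voom and to 0.054 and 0.089 with the term. The cause of these changes was not tested. Correlations of deviations between same-numbered replicates ran from -0.27 to 0.33. In 0 of 12 pairs of groups were they above 0.1 throughout, so the numbers are not taken as pairs. This rule cannot show a tie of 1 replicate number alone. The high libraries of adult antibiotics saline, adolescent water morphine and adult water morphine are all replicate 5, and a tie between them was not tested. Limits are the few libraries per group, a spread of members within groups well above that of all genes, and medians whose sign turns without 1 library in 10 of the 12 pairs: without adolescent water saline replicate 1 in 3, without adult antibiotics saline replicate 5 in 3, and without others in the rest.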

Other observations

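The shallow pair of libraries left out of every test still held counts of the set. Adult antibiotics morphine replicate 4 had 58764 counts, of which 125 fell on 22 members (0.213%), and 51 on Mbp. That is 868 counts of Mbp per 1000000 of the raw total, here not TMM-scaled, with an exact 95% binomial (Clopper-Pearson) interval of 646 to 1141 for counting error only. Adolescent antibiotics saline replicate 3 had 25165 counts, of which 53 fell on 19 members (0.211%), and 19 on Mbp. That is 755 on the same raw scale, with an interval of 455 to 1179. Both values lie within the span of the 34 deeper libraries without adolescent water saline replicate 1.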
